A study of Mus musculus with 8 samples.

Results

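Ribosome biogenesis and nucleolar factors were followed in mouse macrophages during the first 120 min after lipopolysaccharide (LPS), a bacterial cell wall component that is sensed by TLR4. The group comprised 39 genes, chosen by name for their known work in ribosome production, with earlier results of these data known. All 39 were among the 23143 genes of the count table. RNA came from RAW264.7 cells, an established macrophage-like line from a mouse tumour, which was treated with 100 ng/ml LPS for 15, 30, 45, 60, 75, 90 or 120 min. The unstimulated culture was the 0 min control, and each of the 8 time points was 1 library (n = 1). The sample labels name the RNA fraction as cytoplasmic and the molecule as total RNA, and the study's methods describe total RNA from which ribosomal RNA had been removed before sequencing. Every comparison with 0 min used the same single control library, so the 7 later time points were not independent of each other in this respect. RAW264.7 is a single tumour line, which limits it as a model of primary macrophages.

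Total counts ranged from 100250892 to 159077286 per library, and the lowest count of any of the 39 genes in any library was 2307, so that counting error was small. The median half-width of the 95% counting interval of a 120 min ratio was 0.03 on the log2 scale. Such intervals cover counting error only and say nothing about the spread between cultures. All 8 macrophage markers examined had at least 100 normalized counts in every library, and all 20 markers of other cell types stayed below 100. Rn45s, the ribosomal RNA precursor gene, took between 8.18% and 20.5% of the counts, with the higher shares at 15, 45, 75 and 90 min. Ribosomal RNA had been depleted, so these shares do not measure its synthesis. The 39 genes together took 0.994% to 1.18% of all counts.

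Ribosomes are assembled in the nucleolus. RNA polymerase I transcribes a long precursor RNA, which small nucleolar ribonucleoprotein particles (snoRNPs) modify at selected bases, box C/D particles by methylation of the ribose and box H/ACA particles by conversion of uridine to pseudouridine. The small subunit processome then folds and cleaves the part that becomes the small subunit, and a separate set of assembly factors builds the large subunit around its own RNAs. Genes for these factors are known targets of the Myc transcription factor, which binds with its partner Max to the hexamer called the E-box.

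To show start-site sequences of the group, windows around the transcription start were searched for the E-box, CACGTG, which reads the same on both strands. Each window ran from 250 bases before to 50 bases after the start. RefSeq promoter windows (GRCm38.p6) were matched for 33 of the 39 genes. Fbl, Rrs1, Tcof1, Bop1, Npm1 and Rrp12 had no window in the table. An E-box was found in 6 of the 33 genes (18.2%), namely Nop2, Utp20, Pes1, Mybbp1a, Rrn3 and Wdr43, against 11.7% of the 9146 genes with a window among all those tested below and 8.09% of the 27025 genes in the promoter table. TATAAA, searched on both strands, was found in 2 of the 33 genes (6.06%), Pes1 and Dkc1, against 8.60% of the tested genes. A match describes letters and not binding. The windows of Wdr43 (chr17:71615965-71616264, plus strand), Utp20 (chr10:88826765-88827064, minus strand) and Rrn3 (chr16:13780449-13780748, plus strand) are given 5′ to 3′ with the E-box in capitals, beside the window of Nop58 (chr1:59684756-59685055, plus strand), which has none.
Wdr43: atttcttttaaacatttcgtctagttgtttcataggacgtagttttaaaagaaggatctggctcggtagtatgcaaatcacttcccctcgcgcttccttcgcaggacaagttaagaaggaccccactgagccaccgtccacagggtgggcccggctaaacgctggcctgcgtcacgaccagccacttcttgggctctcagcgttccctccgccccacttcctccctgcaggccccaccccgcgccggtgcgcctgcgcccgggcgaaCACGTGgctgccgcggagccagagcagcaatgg
Utp20: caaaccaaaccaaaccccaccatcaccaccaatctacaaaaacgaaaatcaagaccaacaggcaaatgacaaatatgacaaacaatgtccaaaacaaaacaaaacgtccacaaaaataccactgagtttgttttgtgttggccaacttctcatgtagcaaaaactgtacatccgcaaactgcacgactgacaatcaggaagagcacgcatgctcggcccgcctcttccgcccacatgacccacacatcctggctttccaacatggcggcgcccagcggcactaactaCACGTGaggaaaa
Rrn3: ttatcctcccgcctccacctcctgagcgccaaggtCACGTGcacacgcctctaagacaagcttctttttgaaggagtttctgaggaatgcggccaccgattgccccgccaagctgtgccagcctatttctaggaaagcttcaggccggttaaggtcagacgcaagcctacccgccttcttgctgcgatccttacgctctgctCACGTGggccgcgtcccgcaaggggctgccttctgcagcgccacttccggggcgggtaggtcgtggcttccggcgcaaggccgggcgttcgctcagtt
Nop58: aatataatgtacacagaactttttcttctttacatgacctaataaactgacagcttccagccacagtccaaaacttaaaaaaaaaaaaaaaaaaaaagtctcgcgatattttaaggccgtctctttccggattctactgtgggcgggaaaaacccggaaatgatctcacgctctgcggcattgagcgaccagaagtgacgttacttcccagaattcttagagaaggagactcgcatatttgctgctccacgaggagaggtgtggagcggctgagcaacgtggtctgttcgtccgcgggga
The E-box begins at base 18 of the transcript in Wdr43 and at base 38 in Utp20. Rrn3 holds a pair, which begin 215 and 48 bases before the start. Of the 4 genes shown, Nop58 had the highest and Rrn3 the lowest ratio at 120 min. The genes with an E-box that are not shown, Nop2, Mybbp1a and Pes1, had 120 min ratios of 1.26, 1.41 and 1.08. A relation between the E-box and these ratios was not tested.

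The question addressed by the time course is how mRNA levels move during early macrophage activation. Of the 39 genes, 30 rose with time and 1, Ubtf, fell, in edgeR's quasi-likelihood test of a straight line over the 8 libraries (Benjamini-Hochberg adjusted p below 0.05). Among all 12467 genes tested, 22.7% rose and 23.8% fell. The genes behind these shares were not matched to the 39 for count level. The slope, given as log2 change per 60 min, had a median of 0.19 over the 39 genes and -0.01 over all genes tested. By role, 10 of 10 small subunit factors, 5 of 6 abundant nucleolar proteins, 5 of 7 RNA polymerase I genes, 6 of 9 large subunit factors, 2 of 3 box C/D proteins and 2 of 4 box H/ACA proteins rose. The 8 genes without a called slope were Polr1e, Fbl, Nhp2, Nop10, Ncl, Pes1, Rrp1b and Noc2l. The test has 6 residual degrees of freedom, and its error is the departure of single libraries from the line, which may be technical.

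**Figure D1:**
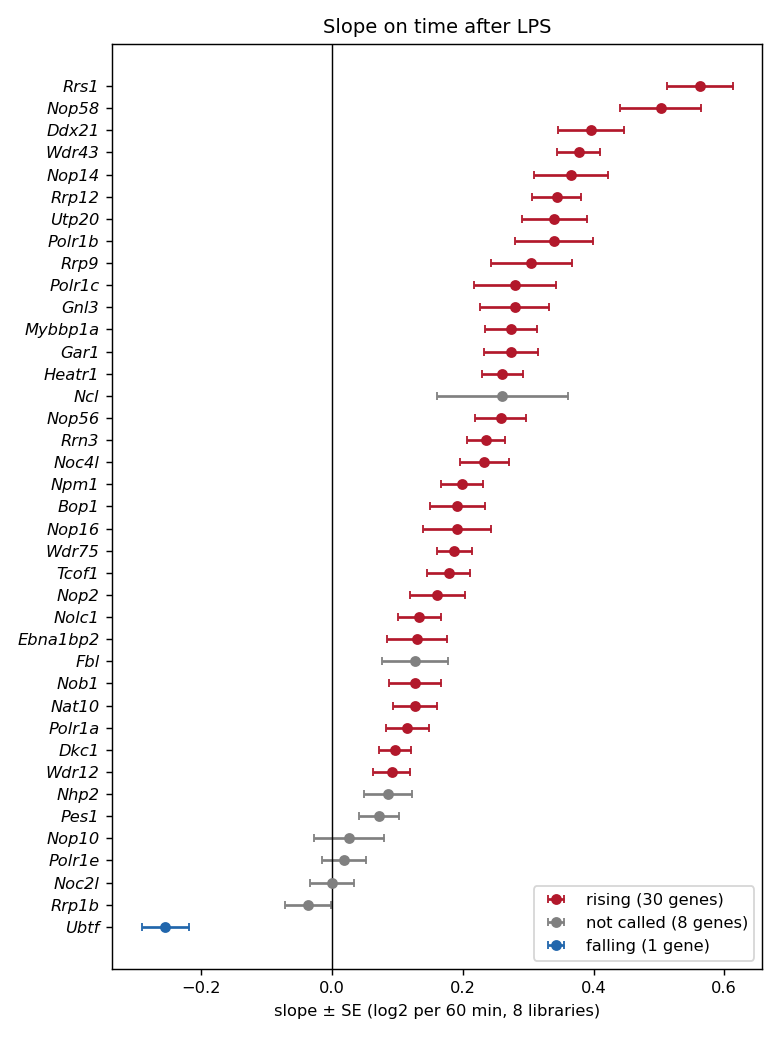
Slope of each of the 39 genes on time after LPS (x axis, log2 per 60 min, points with standard error from edgeR over 8 libraries; red rising, blue falling, grey not called). Rrs1 and Nop58 have the steepest slopes at 0.56 and 0.50, and Ubtf is the single gene called falling, at -0.26.

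The calls depended on the scale on which libraries were compared. With total counts as the scale, 10 of the 39 genes rose and 1 fell, against 9.93% rising and 35.9% falling among all genes tested. With total counts without Rn45s, 19 rose and 3 fell (Ubtf, Noc2l and Rrp1b), against 13.4% and 41.2%. The 10 genes that rose on total counts were Rrs1, Nop58, Ddx21, Wdr43, Utp20, Nop14, Rrp12, Heatr1, Mybbp1a and Gar1. The 0, 30, 60 and 120 min libraries, which had the lower Rn45s shares, gave 17 rising genes and 1 falling gene on their own, against 11.8% and 8.88% of the genes tested there. Without the 120 min library 22 genes rose, against 19.1% rising and 20% falling over all genes tested there. That fit lost 10 calls (Bop1, Ebna1bp2, Nat10, Nob1, Nop16, Nop2, Polr1a, Polr1c, Rrp9 and Wdr12) and gained those of Fbl and Ncl. Of these 10 calls, those of Ebna1bp2, Nob1 and Wdr12 were also lost without the 15, 30, 75 or 90 min library. Ebna1bp2 was lost without the 60 min library too, Nop16 without the 15 min library and Polr1a without the 0 min library. On total counts the slopes of 9 genes (Dkc1, Fbl, Nhp2, Noc2l, Nop10, Pes1, Polr1a, Polr1e and Wdr12) turned to below 0, and 7 of these, all but Fbl and Polr1a, did so without Rn45s as well. The other 21 of the 31 calls were kept with each library left out in turn.

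The median log2 ratio of normalized counts to 0 min (median-of-ratios scale, pseudocount 1) over the 39 genes was 0.02, 0.04, 0.06, 0.13, 0.18, 0.26 and 0.36 in the 7 stimulated libraries in order of time. In bulk RNA, a change in every cell and a change in some of the cells cannot be told apart, nor can fewer cells of a type and less RNA per cell. The median over the 12166 genes with a mean of at least 10 normalized counts lay between -0.01 and 0.02 throughout. The median-of-ratios scale places the typical gene near 0 in each library by design. On total counts the medians at 120 min were 0.15 for the 39 genes and -0.21 for all genes, so that this scale lowered both. Of the 39 genes, 37 lay above the median of all genes at 120 min. A change of scale moves all genes of a library alike, so this count could not show a dependence on the scale.

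**Figure D2:**
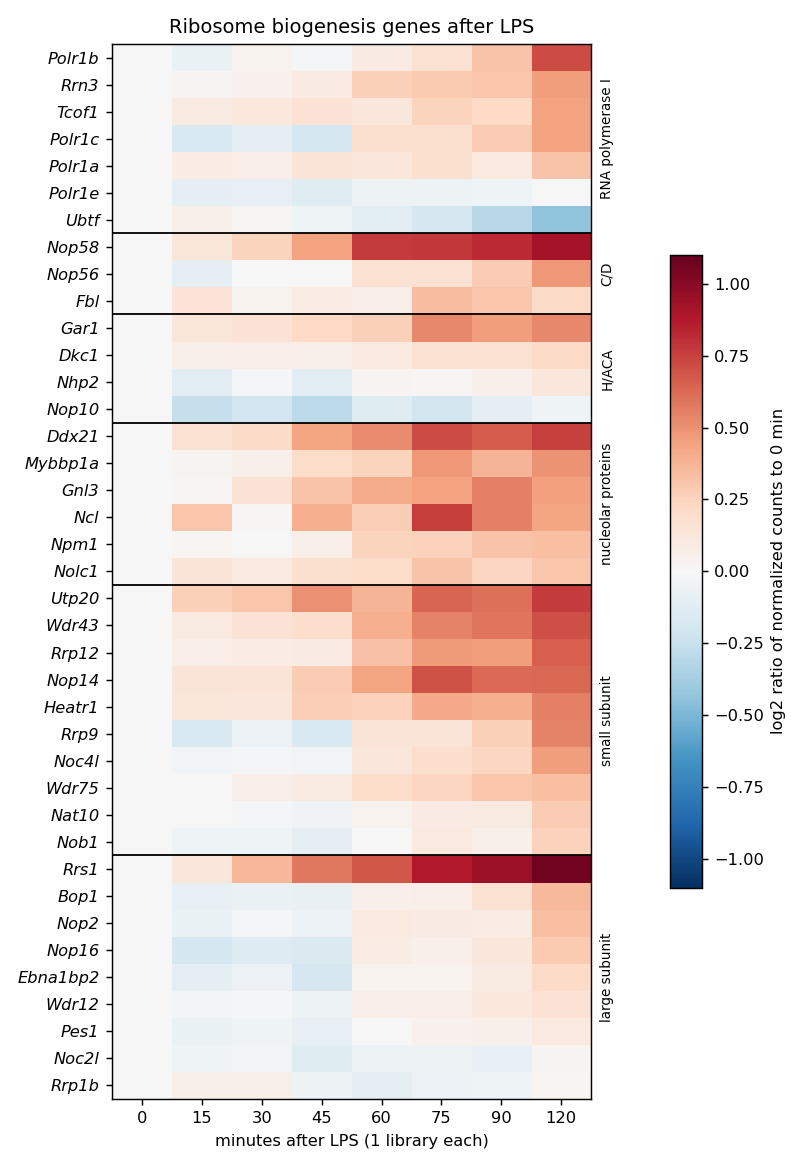
Log2 ratio of normalized counts to the 0 min library (colour, red higher and blue lower) for the 39 genes (rows, by role) at 8 times after LPS (columns, 1 library each). The red deepens towards 120 min in most rows, from a median of 0.06 at 45 min to 0.36 at 120 min, and Ubtf turns blue.

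A log2 ratio above 0.5 was reached by 0 of the 39 genes at 15 and 30 min, where 2.61% and 4.1% of all genes had reached it. It was reached by 1 gene at 45 min (Rrs1; 10.3% of all genes) and by 3 at 60 min (Rrs1, Nop58 and Ddx21; 8.95%). At 75 and 90 min 8 genes were past it (12.6% and 14%), and at 120 min 11 genes were (16.8%). No gene of the 39 was below -0.5 at any time, whereas of all genes 2.02%, 2.4%, 5.71%, 7.33%, 11%, 12.3% and 15.7% were, in order of time. These shares take in genes with a mean of only 10 normalized counts, where counting error is larger. The 39 genes had at least 2307 counts in every library, and the shares were not matched for count level. On either total-count scale, 6 genes were above 0.5 and 1 below -0.5 at 120 min, against 10.7% and 25.3% of all genes on total counts and 10.9% and 24.8% without Rn45s. A log2 ratio above 1 was reached by 1 gene at 120 min, Rrs1, against 6.29% of all genes. Just inside the limit at 120 min lay Gar1 at 0.53 and just outside Mybbp1a at 0.49.

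Rrs1, a factor that helps bring the 5S ribonucleoprotein into the large subunit, had the highest ratio (chr1:9545408-9547455). From 0 to 120 min, in order of time, the 8 libraries held 15093, 16445, 19400, 22498, 24299, 27613, 29151 and 31439 normalized counts. Each library was higher than the one before it in time. The ratio at 120 min was 2.08 (95% counting interval 2.05 to 2.12) and the slope 0.56 ± 0.05 (SE; edgeR adjusted p = 0.000118).

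Nop58, a core protein of box C/D particles (chr1:59684961-59711510), had 36228, 39690, 42966, 49170, 61640, 61980, 64102 and 68505 normalized counts in the same order of times. Most of the difference was present by 60 min, and the last 4 libraries were all above the first 4. The 120 min ratio was 1.89 (1.87 to 1.91) and the slope 0.50 ± 0.06 (edgeR adjusted p = 0.000367).

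Utp20, a large scaffold protein of the small subunit processome (chr10:88746607-88826814), had 17100, 20477, 21097, 24180, 22166, 26626, 26103 and 29086 normalized counts from 0 to 120 min. All 7 stimulated libraries were above the control, with small steps back at 60 and 90 min. The ratio at 120 min was 1.70 (1.67 to 1.73) and the slope 0.34 ± 0.05 (edgeR adjusted p = 0.000781). Ddx21, an RNA helicase that acts in transcription and processing of ribosomal RNA (chr10:62580247-62602298), had 54300, 61030, 62865, 73377, 78035, 89317, 86339 and 91213. It too was above the control in each stimulated library, and its slope was 0.40 ± 0.05 (edgeR adjusted p = 0.000413).

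Polr1b, the second-largest subunit of RNA polymerase I (chr2:129100970-129128060), moved later. Its normalized counts were 9025, 8596, 9276, 8928, 9615, 10132, 11240 and 14826 from 0 to 120 min. The first 4 libraries lay close together and the 120 min library stood well above the rest. The ratio was 1.64 (1.60 to 1.68) at 120 min, and 12.8% of that log2 ratio was present at 60 min. Wdr43, a component of the subcomplex of the small subunit processome that also acts in transcription of ribosomal RNA (chr17:71616178-71659031), had 28774, 30767, 32140, 32940, 37895, 42050, 43284 and 47078. Each library was above the one before it, and the slope was 0.38 ± 0.03 (edgeR adjusted p = 0.000111).

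**Figure D3:**
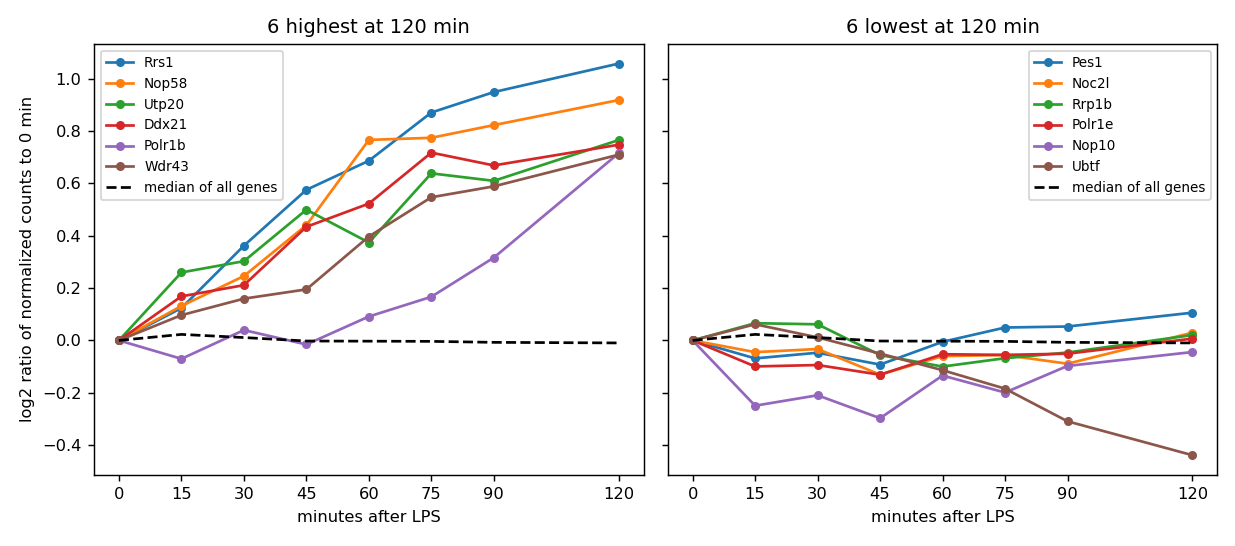
Log2 ratio of normalized counts to 0 min (y axis) against minutes after LPS (x axis, 1 library per time) for the 6 genes highest at 120 min (left) and the 6 lowest (right), with the median of 12166 genes dashed. Rrs1 reaches 1.06 and Polr1b stays near 0 until 45 min, while Ubtf ends at -0.44 and Nop10 is lowest at 45 min.

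Among RNA polymerase I genes, Ubtf went the other way. It encodes UBF, the HMG-box protein that binds along ribosomal DNA and keeps it open for RNA polymerase I (chr11:102304560-102323649). Its normalized counts were 28119, 29348, 28345, 27154, 25985, 24743, 22693 and 20743 from 0 to 120 min. After 15 min, each library was below the one before it. The ratio at 120 min was 0.738 (0.726 to 0.750) and the slope was -0.26 ± 0.04 (edgeR adjusted p = 0.000701), and it fell on each scale tried.

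Rrn3, the factor that carries the growth signal to RNA polymerase I by binding it before initiation, rose from 14633 to 20134 normalized counts between 0 and 120 min (slope 0.24 ± 0.03, edgeR adjusted p = 0.000347). Polr1c, a subunit shared with RNA polymerase III, rose with a slope of 0.28 ± 0.06, and Tcof1, which encodes the nucleolar protein treacle, with one of 0.18 ± 0.03. Polr1a, the largest subunit, had a slope of 0.11 ± 0.03, which turned to -0.0085 on total counts. Polr1e, a subunit found in RNA polymerase I alone (chr4:45018609-45034279), had 3376, 3151, 3162, 3082, 3254, 3249, 3259 and 3392 normalized counts. Its libraries differed little, and its slope of 0.02 ± 0.03 was not called (edgeR adjusted p = 0.687).

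Ratios between subunits of one complex do not depend on the scale between libraries. Between 0 and 120 min the log2 ratio of Polr1b to Polr1a was higher by 0.40 (95% counting interval 0.35 to 0.44) and that of Polr1b to Polr1e by 0.71 (0.64 to 0.78). At 60 min the same differences were -0.03 and 0.14. Most of the difference between Polr1b and these subunits arose after 60 min, in 1 library per time and with no replicate check.

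In the box C/D particle, Nop58 and its partner Nop56 both rose. Nop56 had 44756 normalized counts at 0 min, 50151 at 60 min and 62146 at 120 min (slope 0.26 ± 0.04, edgeR adjusted p = 0.000951). Fbl, the particle's methyltransferase fibrillarin, went from 24683 to 28609, with the highest value of 31283 at 75 min, and its slope of 0.13 ± 0.05 was not called (edgeR adjusted p = 0.0685). The log2 ratio of Nop58 to Fbl was higher at 120 min than at 0 min by 0.71 (0.68 to 0.73), and that of Nop58 to Nop56 by 0.45 (0.42 to 0.47). The second of these was larger at 60 min, at 0.60.

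The 4 proteins of the box H/ACA particle also differed. Gar1 went from 3871 to 5574 normalized counts (slope 0.27 ± 0.04, edgeR adjusted p = 0.000977). Dkc1, the pseudouridine synthase dyskerin, had a smaller slope of 0.10 ± 0.02, which turned to -0.029 on total counts and -0.0032 without Rn45s. Nhp2 had a slope of 0.09 ± 0.04 that was not called. Nop10, the smallest of the 4 proteins (chr2:112261926-112262898), had 8842, 7438, 7646, 7195, 8056, 7701, 8264 and 8574 normalized counts. All 7 stimulated libraries were below the control, lowest at 45 min, and the slope of 0.03 ± 0.05 was not called (edgeR adjusted p = 0.726). The log2 ratio of Gar1 to Nop10 was higher by 0.57 (0.50 to 0.64) at 120 min.

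Of the abundant nucleolar proteins, Npm1, the nucleolar chaperone nucleophosmin, rose from 242822 to 305577 normalized counts (slope 0.20 ± 0.03, edgeR adjusted p = 0.00139). Gnl3, the GTP-binding protein nucleostemin, rose with a slope of 0.28 ± 0.05, and 90.9% of its 120 min log2 ratio was present at 60 min. Mybbp1a, a nucleolar binding partner of Myb, rose with a slope of 0.27 ± 0.04, and Nolc1, a chaperone of snoRNPs, with one of 0.13 ± 0.03.

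Ncl encodes nucleolin, a major nucleolar RNA-binding protein (chr1:86344719-86359455), and was singled out after its values were seen. Its libraries held 123924, 153434, 125088, 163568, 149291, 210075, 182024 and 167020 normalized counts from 0 to 120 min. The values of the 15 and 45 min libraries were above those of the 0, 30 and 60 min libraries, and those of the 75 and 90 min libraries were the highest, and these 4 libraries also had the higher Rn45s shares. The slope of 0.26 ± 0.10 was not called (edgeR adjusted p = 0.0614). With the log2 Rn45s share as a covariate the slope was 0.20 and was called (edgeR adjusted p = 0.00601), and in the 0, 30, 60 and 120 min libraries alone it was 0.23 (edgeR adjusted p = 0.0379). Fbl had 27398, 26061, 31283 and 30549 normalized counts in those 4 libraries (15, 45, 75 and 90 min) and 24683, 25415, 25893 and 28609 in the others, so that the ranges overlapped through the 120 min library. The part of the Rn45s share in these values was not tested.

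**Figure D4:**
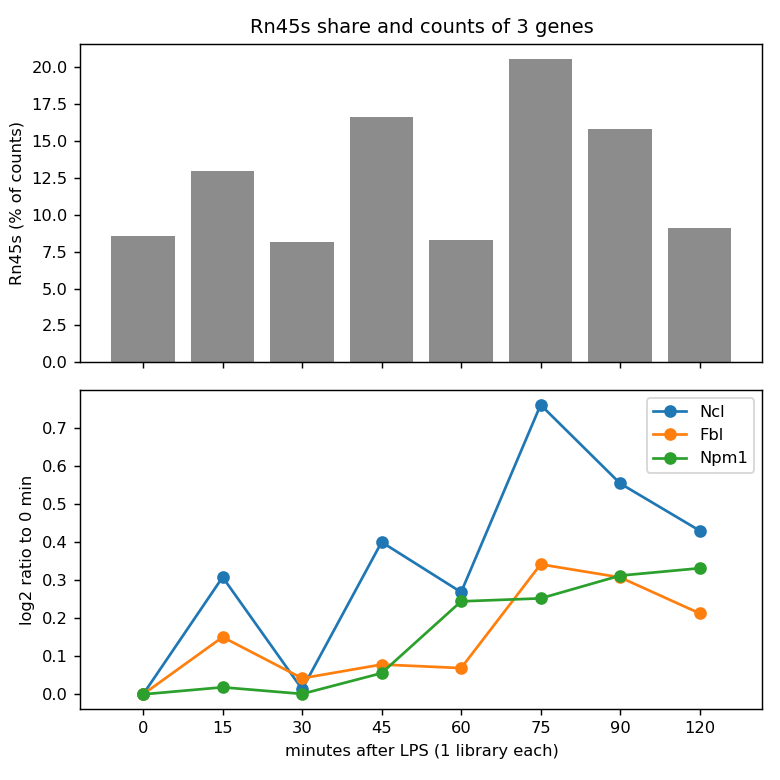
Rn45s share of counts in each library (upper panel, bars, percent) and log2 ratio of normalized counts to 0 min for Ncl, Fbl and Npm1 (lower panel) against minutes after LPS, drawn at even spacing with 1 library per time. The libraries at 15, 45, 75 and 90 min have Rn45s shares of 13.0% to 20.5%, and Ncl is higher there than at 30 or 60 min, whereas Npm1 at 15 and 45 min is below its 60 min value.

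The opposite shape was more common in the group. At both 15 and 45 min, 14 of the 39 genes had fewer normalized counts than at any of 0, 30 and 60 min (35.9%), against 11.8% of the 12166 genes. They were Polr1b, Polr1c, Polr1e, Nhp2, Nop10, Noc4l, Rrp9, Nob1, Bop1, Pes1, Wdr12, Nop2, Nop16 and Ebna1bp2, that is 6 of the large subunit factors, 3 of the small subunit factors, 3 RNA polymerase I subunits and a pair of box H/ACA proteins. Fbl and Ncl were above all 3 of those libraries at both times, which makes 2 of the 39 (5.13%) against 11% of the 12166 genes. A similar dip was seen outside the group. The median log2 ratio of the 81 ribosomal protein genes was -0.13 at 15 min and -0.17 at 45 min. At 30 and 60 min it was -0.08 and -0.03. These counts and medians describe single libraries and have no test.

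All 10 small subunit factors rose, with slopes from 0.13 to 0.38. Beside Utp20 and Wdr43 they included Nop14 (slope 0.37 ± 0.06), which is needed for formation of the small subunit, Rrp12 (0.34 ± 0.04), an export factor of subunits, and Rrp9 (0.30 ± 0.06), a protein of the U3 particle. Heatr1, which links the processome to transcription of ribosomal RNA, had 21326 normalized counts at 0 min and 31366 at 120 min. Noc4l had a slope of 0.23 ± 0.04 and Wdr75 one of 0.19 ± 0.03. The smallest slopes were those of Nat10, which acetylates cytidines of the small subunit RNA, and Nob1, the endonuclease that makes its final cut, both at 0.13. The calls of Rrp9, Nat10 and Nob1 were among those lost without the 120 min library. That of Nob1 was also lost without the 15, 30, 75 or 90 min library. On total counts the calls of Nat10, Nob1, Noc4l, Rrp9 and Wdr75 were lost. On total counts without Rn45s those of Nat10 and Nob1 were lost.

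Large subunit factors were spread widely. Rrs1 had more than doubled at 120 min, whereas the other 8 had 120 min ratios between 1.01 and 1.28. Bop1, Pes1 and Wdr12 form a complex needed for maturation of the large subunit RNAs. Bop1 rose from 16483 to 21097 normalized counts (slope 0.19 ± 0.04, edgeR adjusted p = 0.00612), with 15.7% of its 120 min log2 ratio present at 60 min. Wdr12 had a slope of 0.09 ± 0.03, which turned to -0.034 on total counts and -0.0083 without Rn45s. Pes1 (chr11:3963975-3980004) had 28428, 27105, 27515, 26664, 28322, 29416, 29495 and 30596 normalized counts, so that the libraries from 15 to 60 min lay below the control and the last 3 above it. Its slope of 0.07 ± 0.03 was not called (edgeR adjusted p = 0.0892). The log2 ratio of Bop1 to Pes1 was higher by 0.25 (0.22 to 0.28) at 120 min and that of Wdr12 to Pes1 by 0.05 (0.02 to 0.09).

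Nop2, a cytosine methyltransferase of the large subunit RNA, and Nop16 and Ebna1bp2, both assembly factors, rose with slopes of 0.16 ± 0.04, 0.19 ± 0.05 and 0.13 ± 0.05. These calls were lost without the 120 min library. That of Nop16 was also lost without the 15 min library, and that of Ebna1bp2 without the 15, 30, 60, 75 or 90 min library. Rrp1b (chr17:32036162-32062865) had 11138, 11658, 11624, 10714, 10392, 10625, 10785 and 11298 normalized counts, with the lowest value at 60 min. Its slope of -0.04 ± 0.04 was not called (edgeR adjusted p = 0.425). Noc2l, which is known as an inhibitor of histone acetylation as well as an assembly factor (chr4:156234655-156247616), had 38144, 36976, 37284, 34839, 36591, 36694, 35860 and 38933. Only its 120 min library was above the control, and its slope of 0.00 ± 0.03 was not called (edgeR adjusted p = 0.998), although on total counts without Rn45s it was -0.10 and called (edgeR adjusted p = 0.0281).

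The share of the 120 min log2 ratio present at 60 min differed among the steepest genes. It was 83.4% for Nop58, 69.9% for Ddx21, 69.3% for Nop14, 64.9% for Rrs1, 55.9% for Wdr43, 49.1% for Rrp12 and 48.9% for Utp20, beside the 12.8% of Polr1b. Each of these shares rests on 3 libraries.

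Sorting by the study's rule, which looks for maxima and minima between pairs of libraries that pass a log2 fold change limit of 0.5 together with p below 0.05, not adjusted for multiple tests, placed 7 of the 39 genes in group g1, whose first maximum is at or after 60 min. These were Ddx21, Ncl, Nop58, Polr1b, Rrs1, Utp20 and Wdr43. The rule was rebuilt from the study's methods. Its groups g1 to g4 over all genes were larger than those the study reports for the mRNAs it analysed. Of all 23143 genes 5.38% were in g1, and of the 12166 genes with a mean of at least 10 normalized counts 9.64% were. The maximum was at 75 min for Ncl and at 120 min for the other 6. The remaining 32 genes were in g0, which holds genes that did not meet both conditions, among them Nop14, Rrp12, Heatr1, Rrp9 and Gar1 with 120 min log2 ratios above 0.5, and none was in g2 (a first minimum at or after 60 min), g3 or g4 (an extremum before 60 min and the opposite one later), which held 5.32%, 0.592% and 0.415% of all genes. Among genes with a mean of at least 10, g2 held 9.99%. With Benjamini-Hochberg adjustment g1 held 0 of the 39 genes (2.48% of all genes). On total counts (3.15%), or with a log2 fold change limit of 1 (3.6%), it held Rrs1 alone, and with the 0, 30, 60 and 120 min libraries it held Nop58 and Rrs1 (4.55%).

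Other genes of the same pathway were taken from lists chosen by role, with earlier results of these data known. Of 121 further ribosome biogenesis genes tested, 77 rose and 5 fell, and their median log2 ratio at 120 min was 0.29 (0.09 on total counts). By list, 38 of 49 large subunit maturation factors and 28 of 44 small subunit processome genes rose, whereas 6 of 16 genes of the RNA polymerase I machinery and 5 of 12 snoRNP assembly factors did. The 5 with the highest ratios at 120 min were Mdn1, a very large AAA-type ATPase of large subunit maturation (2.27, counting interval 2.23 to 2.30), Gtpbp4 (2.00), Urb1 (1.88), the DNA topoisomerase Top1 (1.87) and Gnl2 (1.82). The 5 lowest were Rrp36 (0.778), Polr2e, a subunit common to the 3 nuclear RNA polymerases (0.815), Cd3eap, a partner of Polr1e (0.865), Imp3 (0.865) and Coil, which encodes the Cajal body protein coilin (0.870). All 5 of the highest rose and all 5 of the lowest fell in the edgeR test. That test used the same 0 and 120 min libraries by which they were ranked, so it is no separate check.

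Ribosomal protein genes, which supply the proteins that these factors assemble, are given for comparison. Of 81 tested, 3 rose, and their median log2 ratio was -0.17 at 45 min and -0.01 at 120 min. Of 58 translation initiation and elongation factors 33 rose and 3 fell, with a median of 0.23 at 120 min. On total counts the median of all genes at 120 min was -0.21, that of the ribosomal protein genes was also -0.21, and that of the translation factors was 0.03. The difference between the lists was described and not tested.

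**Figure D5:**
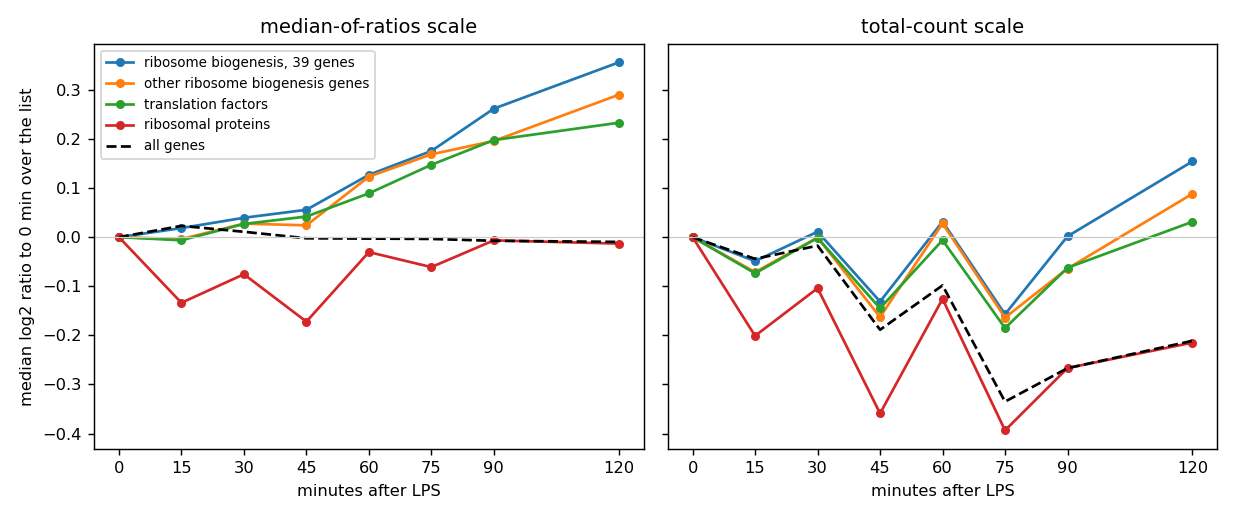
Median log2 ratio to 0 min (y axis) against minutes after LPS (x axis, 1 library per time) for the 39 genes, 121 other ribosome biogenesis genes, 58 translation factors, 81 ribosomal protein genes and all genes (dashed), on the median-of-ratios scale (left) and on total counts (right). At 120 min the median of the 39 genes is highest, at 0.36 (left) and 0.15 (right). A change of scale moves all lists alike, so their order cannot differ between the panels. On total counts the median of the 39 genes is below 0 at 15, 45 and 75 min.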

How the data were processed

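The authors had sequenced RNA of RAW264.7 cells with 1 library per time point and deposited raw read counts per gene symbol for 23143 genes, after Ribo-Zero depletion. According to the methods, Bowtie placed the reads on RefSeq transcripts (mm10, refGene), and reads that matched several gene symbols were discarded. The submitters' processing notes name CASAVA 1.8.2 and DESeq 1.10.1, and the Bowtie version is not given in the sources used here. The library kit keeps strand, and whether the counting used it is not given in the sources used here.

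Slopes on minutes were fitted to the counts with edgeR 4.0.16 in R 4.3.3 (quasi-likelihood, TMM factors, filterByExpr, all 12467 genes passing, Benjamini-Hochberg adjustment), and DESeq2 1.42.0 was an alternative. Normalized counts are counts divided by median-of-ratios size factors. Ratios have exact conditional binomial 95% intervals, and log2 ratios used a pseudocount of 1. The pattern groups were rebuilt in Python 3.11.15 from the study's settings. Both procedures were tested on simulated data. The trend test called all 100 genes with a slope of 0.5 and 11 of 12186 unchanged genes. The pattern rule placed 199 of 200 genes changed 4-fold and also called 129 of 10294 unchanged genes. The dispersion, or spread beyond counting error, was set to 0.01 for the trend test and 0.005 for the pattern rule. The dispersion fitted to the 8 libraries for the pattern rule, with time points treated as replicates, approached 0.029 at high counts. Most of the 39 genes had slopes below 0.5, with a median of 0.19. Slopes below 0.5, changes below 4-fold and the fitted dispersion were not tested. Values in all 8 libraries are given for the 6 highest and the 6 lowest genes at 120 min, any past the limit of 0.5 before 60 min, and Ncl. The members and lists were chosen with earlier results of these data known. The alternative with 4 libraries for the pattern groups was added after the data were examined. Coordinates and promoters come from RefSeq on GRCm38.p6. Levels were not compared between genes. Nothing states that the libraries are biological replicates, and the polysome arrays were not analysed here.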

Additional observations from a re-analysis of the deposited data

How the results depend on the processing

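With total counts and with total counts without Rn45s as the scale, the median log2 ratio of the 39 genes was 0.15 and 0.16 at 120 min (0.36 as reported) and 0.032 and 0.027 at 60 min (0.13). On these 2 scales 6 and 6 genes were above 0.5 at 120 min and 1 and 1 below -0.5 (over all genes 1298 and 1322 above, 3074 and 3013 below), 10 and 19 genes had a rising slope, and 1 and 3 a falling one. Over all genes 1238 and 1670 then rose and 4470 and 5136 fell, in place of 2828 and 2961. Slopes that turned to below 0 on these 2 scales were those of Dkc1 (-0.029 and -0.0032), Wdr12 (-0.034 and -0.0083), Nhp2 (-0.040 and -0.014), Nop10 (-0.099 and -0.074), Pes1 (-0.054 and -0.028), Polr1e (-0.106 and -0.081) and Noc2l (-0.124 and -0.099), and on total counts alone Polr1a (-0.0085) and Fbl (-0.0012). With 1 library left out, the slopes of Noc2l (-0.051 to 0.023; below 0 without the 45 min, 75 min or 120 min library, at -0.0039, -0.0043 and -0.051), Nop10 (-0.026 to 0.115) and Polr1e (-0.010 to 0.056) also turned, the last pair without the 120 min library, and Noc2l was at -0.0041 with no low-count filter. Of these, Noc2l without Rn45s was called. On these scales the median of all genes at 120 min was below 0 (-0.21 and -0.20). On total counts it was lowest at 75 min (-0.34), in the library with the highest Rn45s share (20.5%). Without Rn45s it was lowest at 120 min. Beyond these shifts the cause was not tested. The 0, 30, 60 and 120 min libraries alone gave 17 rising genes of the 39, with 1454 rising and 1093 falling over all genes, by a fit with fewer libraries. A limit of 1 in place of 0.5 left 1 gene above it at 120 min (765 of all 12166) and 0 at 60 min. Group g1 held 2 genes with those 4 libraries, 0 with Benjamini-Hochberg adjustment, 1 with a limit of 1 and 1 on total counts, in place of 7. With each library left out in turn, 22 to 32 genes rose and 1 fell. With each stimulated library left out in turn, g1 held 5 to 8, and the 0 min library was not left out for g1. DESeq2's Wald test gave 34 rising genes, the Rn45s share as a covariate 32 and no low-count filter 27. Of the slopes of single genes under these alternatives, 482 kept their direction and call, 68 kept direction and lost the call, 13 kept direction and gained it, and 22 turned sign. No paired analysis was possible because each time point had 1 library and no replicate numbers were shared. There is 1 library per time point, so the spread between cultures is unknown.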
